A study of Mus musculus with 10 samples.

Results

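The genes described here are 10 heat shock genes read by symbol from the gene counts of each library, 10 of 24421 symbols in the files: Hsp90aa1, Hsp90ab1, Hspa1a, Hspa1b, Hspa8, Hsph1, Dnajb1, Hspd1, Hspe1 and Hsf1. All 10 had counts in every library and all 10 passed the filter on low counts. Their working name is cytosolic heat shock proteins, but Hspd1 and Hspe1 encode chaperones of the mitochondrial matrix and Hsf1 encodes a transcription factor, so they are called heat shock genes below. They were chosen by name and function, with no threshold on a measured value, but by then their levels in the FLASH, CONV and sham libraries were known from earlier results. The differences between these groups are therefore given as a description and are no independent evidence of a change.

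Total RNA was sequenced from the subcutaneous white fat of the groin (inguinal WAT) of the left hindlimb of WT C57BL/6J mice at day 70. Electrons of 33.3 Gy had been delivered to that limb at ultra-high dose rate in the FLASH mice (4 libraries) or at conventional dose rate in the CONV mice (3 libraries), both with an ElectronFlash linear accelerator, and sham mice (3 libraries) were not irradiated. All 10 libraries carry 1 batch label, and neither the age nor the sex of the mice is stated in the labels. Nothing in the labels ties each library to its own animal, so every p-value measures the spread between samples, part of which may be technical.

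Heat shock proteins are chaperones that hold, fold or refold other proteins. In the cytosol, HSP70 proteins bind unfolded chains with the help of J proteins and of HSP110, and pass some of them to HSP90, which keeps kinases and steroid hormone receptors, the glucocorticoid receptor of fat cells among them, ready to work. Inside mitochondria a barrel of HSP60 with a lid of HSP10 folds imported proteins. When unfolded proteins build up, the factor HSF1 binds heat shock elements, which are repeats of the unit NGAAN in alternating orientation, and switches the stress-inducible genes on.

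The promoters of 4 genes are shown because they hold such elements, and because those of Hspa1a and Hspa1b are nearly the same. RefSeq windows on GRCm38.p6, from 250 bases before to 50 bases after a gene's start, were matched by symbol for 6 of the 10 genes (9 windows). The motifs searched were GAANNTTC and TTCNNGAA, each its own reverse complement, and the longer GAANNTTCNNGAA and TTCNNGAANNTTC, which are reverse complements of each other and each contain both short motifs. Of 32851 such windows of all mouse genes, 15.1% held a short motif and 0.603% a long one. The 250 bases before the start are printed 5′ to 3′ on the gene's own strand with the matches in capitals. They lie at chr17:34972157-34972406 (minus strand) for Hspa1a, chr17:34959239-34959488 (minus) for Hspa1b, chr5:149636337-149636586 (minus) for Hsph1 and chr1:55087898-55088147 (plus) for Hspe1.
Hspa1a: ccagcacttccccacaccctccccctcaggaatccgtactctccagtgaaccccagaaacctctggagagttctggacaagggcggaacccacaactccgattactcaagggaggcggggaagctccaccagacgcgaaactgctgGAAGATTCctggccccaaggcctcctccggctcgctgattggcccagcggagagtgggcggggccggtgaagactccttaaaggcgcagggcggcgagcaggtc
Hspa1b: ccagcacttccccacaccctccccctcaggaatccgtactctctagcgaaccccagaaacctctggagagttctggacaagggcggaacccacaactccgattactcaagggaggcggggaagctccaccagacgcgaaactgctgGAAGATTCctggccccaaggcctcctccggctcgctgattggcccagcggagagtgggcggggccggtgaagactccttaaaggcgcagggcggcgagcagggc
Hsph1: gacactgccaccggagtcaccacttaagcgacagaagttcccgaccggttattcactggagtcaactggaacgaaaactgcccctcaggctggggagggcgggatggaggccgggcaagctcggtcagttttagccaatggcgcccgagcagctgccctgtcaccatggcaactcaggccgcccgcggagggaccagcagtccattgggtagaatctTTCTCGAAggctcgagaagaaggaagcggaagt
Hspe1: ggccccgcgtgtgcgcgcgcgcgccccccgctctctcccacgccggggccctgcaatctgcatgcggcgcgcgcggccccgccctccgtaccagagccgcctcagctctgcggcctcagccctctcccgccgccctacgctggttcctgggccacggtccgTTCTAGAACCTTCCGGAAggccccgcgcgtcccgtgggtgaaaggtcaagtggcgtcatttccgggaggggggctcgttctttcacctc

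The Hspa1a and Hspa1b stretches were the same at 247 of 250 bases, and both hold GAAGATTC with its first base 104 bases before the start. In the window printed, Hsph1 has TTCTCGAA from 33 bases before the start and, past the printed stretch, the long match TTCTGGAAAGTTC from base 37 of the transcript. The other Hsph1 window uses a different start and holds the same matches, from 54 bases before it and from base 16. The annotated Hsph1 gene reaches chr5:149636376, so both matches lie inside it. The Hspe1 element TTCTAGAACCTTCCGGAA, 89 bases before its start, holds 3 short and 2 long matches that overlap. Hspd1 is transcribed away from Hspe1. Of its 2 windows, 1 shares 285 bases with that of Hspe1 and so holds the same element on the other strand, 144 bases before the Hspd1 start used for it. The 250 bases before that start, chr1:55087933-55088182, lie inside the annotated Hspd1 gene. The other Hspd1 window, chr1:55088194-55088493, held no match. Neither of the 2 windows of Dnajb1 held a match. A match describes the letters only, and its absence says only that these letters are not in this window.

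The libraries held 22.4 M to 36.0 M counts given to genes (M, 1e6), and a count of 3 equals 0.0909 to 0.116 CPM (counts per 1e6 with TMM factors, the unit of all levels below), a floor that covers counting error only. Fat markers matched the labelled tissue: 12 white adipocyte markers summed to 7690 to 45287 CPM in FLASH libraries, 5952 to 37985 CPM in CONV libraries and 33705 to 39793 CPM in sham libraries, none at 0. Both low ends belong to FLASH replicate 3 and CONV replicate 2, where the mean of 10 B cell markers exceeded the sham mean by 8.89 and 9.19 log2 units, against -0.79 to 1.13 in the other 8 libraries. These 2 libraries are called lymphocyte-rich, and fold changes of the 10 heat shock genes are given with all 10 libraries and with the other 8. Of these 8, CONV replicate 1 had 10.9 CPM of summed B cell markers, against 2.12 to 5.34 CPM in sham libraries. Lymph node stroma markers summed to 11.1 CPM in CONV replicate 1 and 8.75 CPM in CONV replicate 3, against 2.62 to 3.13 CPM in sham libraries. Skeletal muscle markers summed to 2060 CPM in CONV replicate 1, 656 CPM in sham replicate 3 and 338 CPM in FLASH replicate 2, against 1.88 to 48.5 CPM in the remaining 7. Keratinocyte markers summed to 174 CPM in FLASH replicate 4, 15.2 CPM in FLASH replicate 3, 32.2 CPM in CONV replicate 2 and 15.3 CPM in CONV replicate 3, against 3.15 to 5.37 CPM in the other 6. In FLASH replicate 3 the keratinocyte list as a whole was not raised. Its mean log2 CPM lay at -0.12 from the sham mean, and 4 of 9 markers were at 0. Macrophage markers summed to 2718 CPM in CONV replicate 1 and 1715 CPM in CONV replicate 2, against 838 to 1282 CPM in the other 8. Their mean log2 CPM lay 1.46 above the sham mean in CONV replicate 1 but only 0.13 above it in CONV replicate 2. On that scale sham libraries lay at -0.17 to 0.20. Red cell markers summed to 138 CPM in CONV replicate 1 and 28.2 CPM in CONV replicate 3, against 7.55 to 9.81 CPM in sham libraries, with the 4 globin genes at 0 in every library. In such bulk tissue, fewer cells of a type and less RNA per cell cannot be told apart.

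None of the 10 heat shock genes passed the threshold, an adjusted p under 0.05 over the 15266 genes tested, in any of the 3 comparisons (edgeR quasi-likelihood test, Benjamini-Hochberg adjustment). The gene whose groups stood apart most plainly was Hsp90aa1 (a cytosolic HSP90), at 91.8 to 104 CPM in the 4 FLASH libraries, against 116 to 138 CPM in CONV libraries and 121 to 139.7 CPM in sham libraries. Hsph1, a helper of HSP70, stood at 28.1 to 39.3 CPM in CONV libraries, against 18.9 to 21.1 CPM in sham libraries. Hspa1a and Hspa1b, the heat-inducible HSP70 genes, were at 0.502 to 5.21 CPM throughout.

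Read per length of annotated exon, the constitutive chaperones led and the inducible HSP70 genes came last. Hspa8 had a median of 144 CPM per kb over the 10 libraries (119.6 to 183), followed by Hsp90ab1 with 113 (92.4 to 161), Hspd1 with 64.9 (35.3 to 92.3) and Hsp90aa1 with 30.2 (23.4 to 35.5). Next came Hspe1 with 15.3 CPM per kb (10.6 to 23.2), Dnajb1 with 6.51 (4.24 to 7.39), Hsf1 with 3.73 (3.29 to 6.19) and Hsph1 with 2.95 (1.84 to 5.41). Hspa1b with 0.83 CPM per kb (0.289 to 1.86) and Hspa1a with 0.675 (0.169 to 1.05) closed the order. Each gene stood above the next in all 10 libraries, except that Hspa8 exceeded Hsp90ab1 and Hsf1 exceeded Hsph1 in 9 of 10. The ranges of neighbours were apart only between Hsp90ab1 and Hspd1, between Hsp90aa1 and Hspe1 and between Hspe1 and Dnajb1. Exon lengths join all annotated transcripts of a gene, so the level of a gene with long, rarely used exons is understated.

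**Figure D1:**
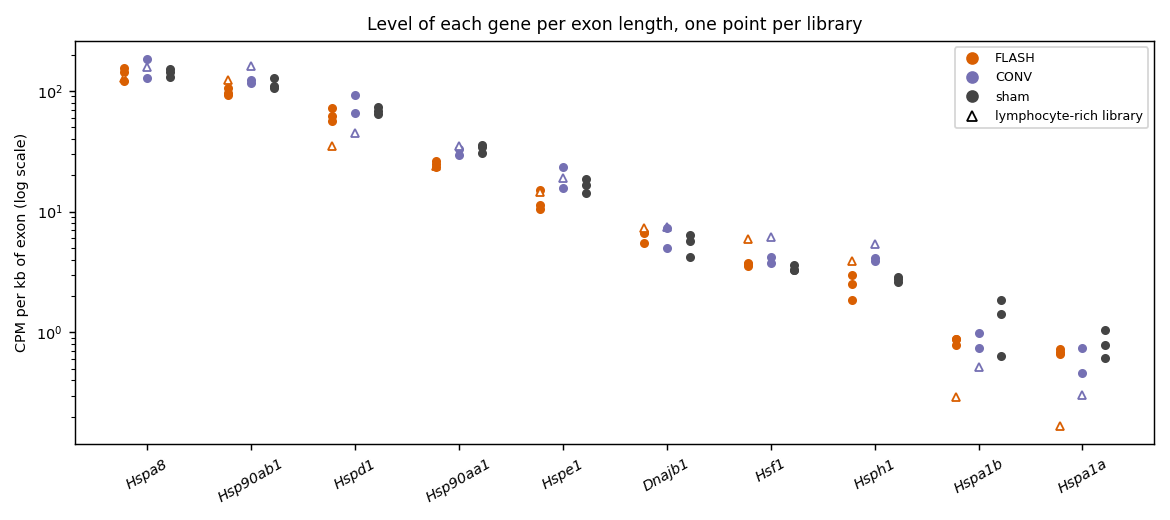
Level of each heat shock gene in CPM per kb of exon on a log axis, with 1 point per library, FLASH, CONV and sham libraries from left to right within a gene and lymphocyte-rich libraries as open triangles. Hspa8, with a median of 144 CPM per kb, stands at the top of the log axis, and Hspa1a at its foot, with a median of 0.675 CPM per kb.

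The cytosolic HSP90 genes are a pair: Hsp90aa1, chr12:110690605-110702728 (minus strand, GRCm38, GENCODE M21), encodes the partly stress-inducible form, and Hsp90ab1, chr17:45567775-45573271 (minus), the constitutive one. Hsp90aa1 stood at 104, 96.6, 93.5 and 91.8 CPM in FLASH libraries, at 131, 138 and 116 CPM in CONV libraries, and at 139.7, 121 and 134 CPM in sham libraries. All 4 FLASH libraries lay below all others, and CONV and sham libraries overlapped. The lowest, FLASH replicate 4, had the most keratinocyte transcripts of the 10 libraries and was also the lowest FLASH library for Hsp90ab1, Hspa8, Hsph1, Dnajb1 and Hspe1, and the part of that tissue in these values was not tested. The FLASH mean was 96.5 ± 5.37 CPM (SD, n = 4), against 129 ± 11.3 CPM in CONV libraries and 132 ± 9.59 CPM in sham libraries (SD, n = 3 each). The log2 fold change was -0.45 ± 0.13 (SE) for FLASH against sham, -0.41 ± 0.13 for FLASH against CONV and -0.04 ± 0.14 for CONV against sham. Without the lymphocyte-rich libraries the differences were -0.44 ± 0.10, -0.33 ± 0.12 and -0.11 ± 0.12 in the same order, and the FLASH libraries were still the lowest. The comparisons with FLASH share the FLASH libraries, so they are not 2 separate observations.

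Hsp90ab1 stood at 318, 290.1, 369 and 277 CPM in FLASH libraries, at 349, 482 and 366 CPM in CONV libraries, and at 383, 318 and 328 CPM in sham libraries. The 3 groups overlapped, and CONV replicate 2, a lymphocyte-rich library, was the highest of the 10. Its log2 fold change was -0.13 ± 0.20 for FLASH against sham, 0.22 ± 0.21 for CONV against sham and -0.35 ± 0.20 for FLASH against CONV. With 8 libraries these were -0.23 ± 0.12, 0.04 ± 0.13 and -0.27 ± 0.13, and the 3 FLASH libraries then lay below both CONV libraries. Per kb, the ratio of Hsp90ab1 to Hsp90aa1 was 3.93 to 5.17 in FLASH libraries, 3.49 to 4.56 in CONV libraries and 3.20 to 3.59 in sham libraries. FLASH and sham libraries did not overlap in this ratio, which uses the same counts as the separate values. Of all pairs of heat shock genes, these 2 had the most alike profiles over the 10 libraries, with a mean absolute difference of 0.15 between their centred log2 CPM. With 8 libraries they no longer did, at 0.113 against 0.0994 for Hsp90ab1 and Hspd1.

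**Figure D2:**
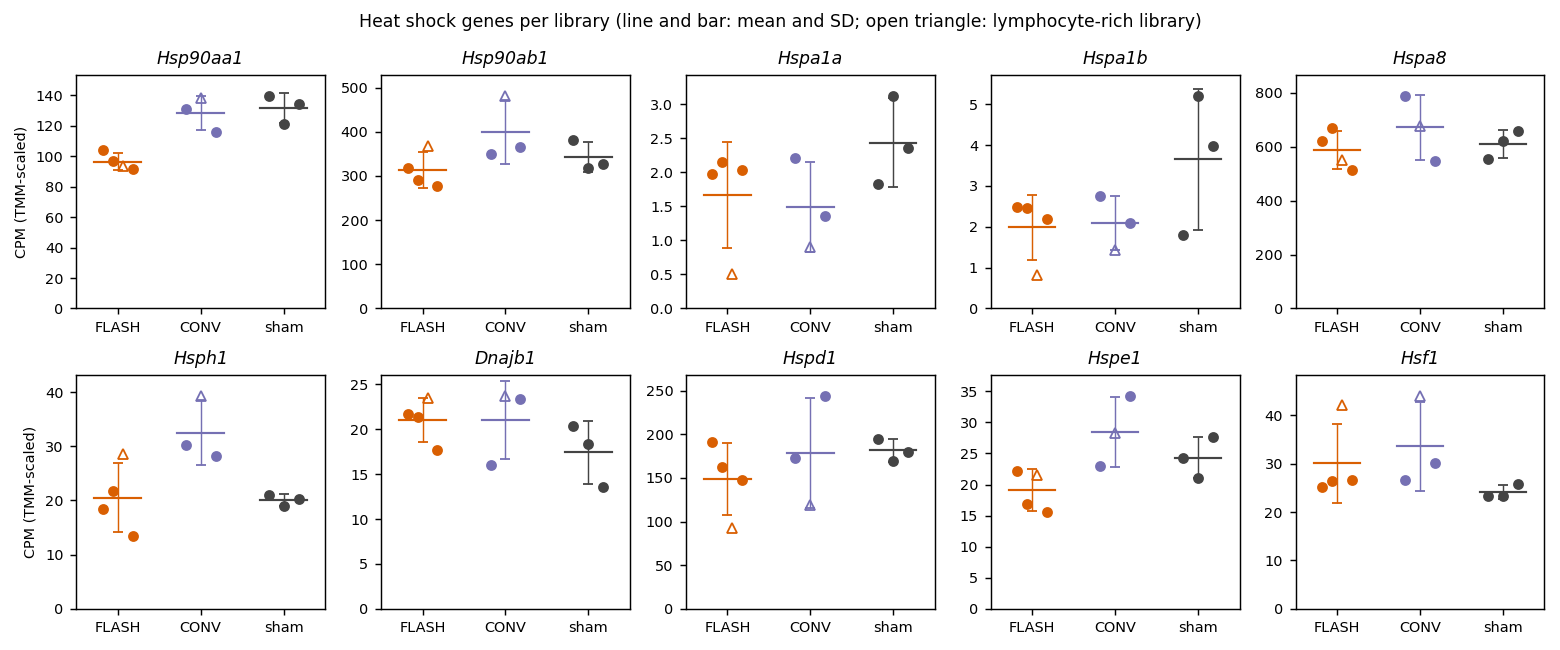
CPM after TMM scaling of the 10 heat shock genes, with 1 point per library, lines and bars for the mean and SD of FLASH (n = 4), CONV (n = 3) and sham (n = 3) libraries, and open triangles for the lymphocyte-rich libraries. The FLASH libraries of Hsp90aa1 lie between 91.8 and 104 CPM, below all CONV and sham libraries, while most other genes overlap.

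Hspa8, chr9:40800984-40810087 (plus strand), encodes the constitutive HSP70 that chaperones newly made chains and strips clathrin from vesicles. It stood at 622, 671, 551 and 515 CPM in FLASH libraries, at 789, 678 and 549 CPM in CONV libraries, and at 555, 621 and 658 CPM in sham libraries. The groups overlapped and neither lymphocyte-rich library was at an end of the range. Log2 fold changes were -0.05 ± 0.22 for FLASH against sham, 0.14 ± 0.24 for CONV against sham and -0.19 ± 0.22 for FLASH against CONV, and with 8 libraries -0.03 ± 0.18, 0.11 ± 0.20 and -0.14 ± 0.20. Small nucleolar RNA genes overlap 262 bases of its annotated exons, where the counts cannot tell their reads from those of Hspa8.

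Hspa1a, chr17:34969190-34972156 (minus), and Hspa1b, chr17:34956436-34959238 (minus), are neighbouring copies that encode the heat-inducible HSP70. Their coding sequences, 1923 and 1926 bases long, align with 1915 identical bases (99.4%), so how reads were divided between them is uncertain. The gene Gm20481 on the opposite strand overlaps 564 bases (19.0%) of the Hspa1a exon, and whether the counting used the strand is not known. Hspa1a stood at 1.97, 2.16, 0.502 and 2.04 CPM in FLASH libraries, at 2.21, 0.905 and 1.36 CPM in CONV libraries, and at 1.82, 3.12 and 2.35 CPM in sham libraries. Hspa1b stood at 2.48, 2.45, 0.811 and 2.19 CPM in FLASH libraries, at 2.75, 1.44 and 2.10 CPM in CONV libraries, and at 1.79, 5.21 and 3.97 CPM in sham libraries. Both genes were lowest in FLASH replicate 3 and CONV replicate 2, the lymphocyte-rich libraries, and highest in sham replicate 2, and irradiated and sham libraries overlapped. These levels rest on 13 to 96 counts of Hspa1a and 21 to 160 counts of Hspa1b per library.

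For Hspa1a the log2 fold change was -0.54 ± 0.53 for FLASH against sham, -0.70 ± 0.57 for CONV against sham and 0.16 ± 0.53 for FLASH against CONV. For Hspa1b it was -0.88 ± 0.49, -0.80 ± 0.54 and -0.08 ± 0.50 in the same order. With 8 libraries the values against sham were -0.25 ± 0.30 (FLASH) and -0.46 ± 0.34 (CONV) for Hspa1a, and -0.63 ± 0.37 (FLASH) and -0.61 ± 0.42 (CONV) for Hspa1b. Those for FLASH against CONV were 0.21 ± 0.34 for Hspa1a and -0.02 ± 0.42 for Hspa1b. The fold changes of Hspa1b against sham lay within 2 standard errors of 0, and sham libraries themselves spread from 1.79 to 5.21 CPM. Without sham replicate 2, the highest, they were -0.54 for FLASH and -0.46 for CONV.

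The helpers of HSP70 are Hsph1, chr5:149614287-149636376 (minus strand), an HSP110 that exchanges the nucleotide of HSP70, and Dnajb1, chr8:83608193-83612653 (plus), a J protein that delivers substrates and starts its ATPase. Hsph1 stood at 18.4, 21.7, 28.6 and 13.4 CPM in FLASH libraries, at 30.2, 39.3 and 28.1 CPM in CONV libraries, and at 21.1, 18.9 and 20.2 CPM in sham libraries. Every CONV library lay above every sham library, while FLASH libraries spread more widely, with 1 below the sham libraries and the lymphocyte-rich replicate 3 within the CONV range. The mean was 20.5 ± 6.37 CPM in FLASH libraries (SD, n = 4) and 32.5 ± 5.93 CPM in CONV libraries, against 20.1 ± 1.08 CPM in sham libraries (SD, n = 3 each). The log2 fold change was 0.70 ± 0.27 for CONV against sham, -0.67 ± 0.25 for FLASH against CONV and 0.03 ± 0.25 for FLASH against sham. Without the lymphocyte-rich libraries it was 0.52 ± 0.19, -0.70 ± 0.19 and -0.18 ± 0.18 in the same order, and all 3 FLASH libraries then lay below both CONV libraries. Against sham, CONV replicate 1 had higher summed muscle, macrophage, red cell, B cell and lymph node stroma markers. CONV replicate 2 had higher summed lymphocyte, lymph node stroma, macrophage and keratinocyte markers, but the mean log2 CPM of its macrophage markers was within the sham range. CONV replicate 3 had higher summed keratinocyte, red cell and lymph node stroma markers. The part of these cell types in the Hsph1 values was not tested.

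Dnajb1 stood at 21.7, 21.3, 23.4 and 17.7 CPM in FLASH libraries, at 16.0, 23.7 and 23.3 CPM in CONV libraries, and at 20.4, 18.4 and 13.6 CPM in sham libraries. The groups overlapped, with 3 of 4 FLASH and 2 of 3 CONV libraries above the highest sham library. Its log2 fold change was 0.27 ± 0.21 for FLASH against sham, 0.27 ± 0.23 for CONV against sham and 0.00 ± 0.21 for FLASH against CONV, and with 8 libraries 0.20 ± 0.20, 0.15 ± 0.23 and 0.05 ± 0.23. The 2 lymphocyte-rich libraries were the highest of the 10, at 23.4 and 23.7 CPM against at most 23.3 CPM in the other 8.

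The mitochondrial chaperonin genes lie head to head: Hspd1 (HSP60), chr1:55077835-55088243, on the minus strand, and Hspe1 (HSP10), chr1:55088132-55091307, on the plus strand. Their annotated exons share 112 bases, 4.24% of the exon length of Hspd1 and 7.60% of that of Hspe1, and whether the counting used the strand is not known. Hspd1 stood at 191, 163, 93.1 and 148 CPM in FLASH libraries, at 173, 119 and 244 CPM in CONV libraries, and at 195, 169.8 and 179.7 CPM in sham libraries. The 2 lymphocyte-rich libraries were the lowest of the 10, and CONV replicate 3 was the highest. Hspe1 stood at 22.3, 16.9, 21.6 and 15.6 CPM in FLASH libraries, at 23.0, 28.3 and 34.2 CPM in CONV libraries, and at 24.3, 21.0 and 27.7 CPM in sham libraries. Every FLASH library lay below every CONV library, FLASH and sham libraries overlapped, and the lymphocyte-rich libraries were not at the low end.

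The mean of Hspe1 was 19.1 ± 3.35 CPM in FLASH libraries (SD, n = 4), 28.5 ± 5.64 CPM in CONV libraries and 24.3 ± 3.34 CPM in sham libraries (SD, n = 3 each). Its log2 fold change was -0.58 ± 0.21 for FLASH against CONV, -0.35 ± 0.21 for FLASH against sham and 0.23 ± 0.22 for CONV against sham, and with 8 libraries -0.64 ± 0.22, -0.42 ± 0.20 and 0.21 ± 0.22. For Hspd1 the values were -0.26 ± 0.29, -0.29 ± 0.29 and -0.02 ± 0.31 in the same order, and with 8 libraries -0.31 ± 0.17, -0.13 ± 0.15 and 0.18 ± 0.17. The ratio of Hspd1 to Hspe1 per kb was 4.78, 5.38, 2.40 and 5.31 in FLASH libraries, 4.21, 2.35 and 3.97 in CONV libraries, and 4.47, 4.51 and 3.62 in sham libraries. The 2 lowest ratios were those of the lymphocyte-rich libraries. Over the other 8 libraries the profiles of this pair were more alike, with a mean absolute difference of 0.15 in centred log2 CPM against 0.32 over all 10. This was not particular to the pair. Hspd1 drew closer to every other heat shock gene in the same way, and for Hsp90ab1 the difference was 0.10 against 0.37. The annotation also names 5 pseudogenes of Hspd1 and 6 of Hspe1, whose reads may be mixed with theirs.

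Hsf1, chr15:76477422-76501913 (plus strand), encodes the master transcription factor of the heat shock response, which is regulated mainly at the protein level. It stood at 25.2, 26.3, 42.2 and 26.5 CPM in FLASH libraries, at 26.7, 44.0 and 30.0 CPM in CONV libraries, and at 23.4, 23.4 and 25.8 CPM in sham libraries. All CONV libraries lay above all sham libraries, and the 2 lymphocyte-rich libraries were far above the other 8, which spanned 23.4 to 30.0 CPM. The log2 fold change was 0.31 ± 0.24 for FLASH against sham, 0.47 ± 0.26 for CONV against sham and -0.16 ± 0.24 for FLASH against CONV. Without these 2 libraries it was 0.10 ± 0.11, 0.21 ± 0.12 and -0.11 ± 0.12 in the same order, and the 3 FLASH libraries then lay below both CONV libraries.

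Across the list, 7 of 10 genes had a negative log2 fold change for FLASH against sham, with a median of -0.21 beside 0.03 over all genes tested. By edgeR 0 of 10 passed the threshold, as 0% of all 15266 genes did, and the lowest adjusted p of a heat shock gene was 0.998. At an unadjusted p under 0.05 stood 1 of 10 genes, Hsp90aa1, beside 0.648% of all genes. Groups did not overlap for 1 of 10 genes, Hsp90aa1 below sham, beside 2.45% of all genes that lay below in this way, and for 0 above sham, beside 2.46%. With 8 libraries the median was -0.20 beside -0.01 over all genes, and 0 of 10 passed. Hsp90aa1 was then again the 1 gene with an unadjusted p under 0.05, beside 2.52%, and the 1 gene whose groups did not overlap, beside 4.63% of all genes below and 5.15% above.

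For CONV against sham, 6 of 10 genes had a positive log2 fold change, with a median of 0.18 beside 0.08 over all genes. By edgeR 0 of 10 passed, as 0% of all genes did, with a lowest adjusted p of 0.607, and 1 of 10 (Hsph1) had an unadjusted p under 0.05 beside 5.82% of all genes. Hsph1 and Hsf1 lay above the sham libraries without overlap, beside 8.58% of all genes above in this way, and 0 of 10 lay below, beside 9.11%. With 8 libraries the median was 0.13 beside 0.01, 0 of 10 passed beside 0.0393% of all genes, 1 of 10 (Hsph1) had an unadjusted p under 0.05 beside 13.3%, and the same 2 genes lay apart beside 12.9%.

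For FLASH against CONV, 8 of 10 genes had a negative log2 fold change, with a median of -0.23 beside -0.04 over all genes. By edgeR 0 of 10 passed, as 0% of all genes did, with a lowest adjusted p of 0.999, and 3 of 10 (Hsp90aa1, Hsph1 and Hspe1) had an unadjusted p under 0.05 beside 2.97% of all genes. Hsp90aa1 and Hspe1 lay below the CONV libraries without overlap, beside 1.12% of all genes below in this way. With 8 libraries 0 of 10 passed beside 0.0131% of all genes, and the same 3 genes had an unadjusted p under 0.05, beside 13.7%. Then 5 of 10 (Hsp90aa1, Hsp90ab1, Hsph1, Hspe1 and Hsf1) lay below without overlap, beside 13.3%, in groups of 3 and 2 libraries. DESeq2 called 1 gene in this comparison, Hsp90aa1 with 10 libraries (adjusted p = 0.0326, beside 0.262% of all genes called) and Hsph1 with 8 (adjusted p = 0.0465, beside 4.37%). It called 0 of 10 for FLASH against sham, beside 0% of all genes with 10 libraries and 0.0262% with 8, and 0 of 10 for CONV against sham, beside 0.432% and 4.33%. Called by limma voom were 0 of 10 in all 3 comparisons, with 10 and with 8 libraries. Of all 15266 genes it called 0 in each comparison with 10 libraries. With 8 libraries it called 0 of 15252 for FLASH against sham, 4 for CONV against sham and 3 for FLASH against CONV. The 3 comparisons share libraries, so their counts are not independent of each other, and the list was chosen with these data known.

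**Figure D3:**
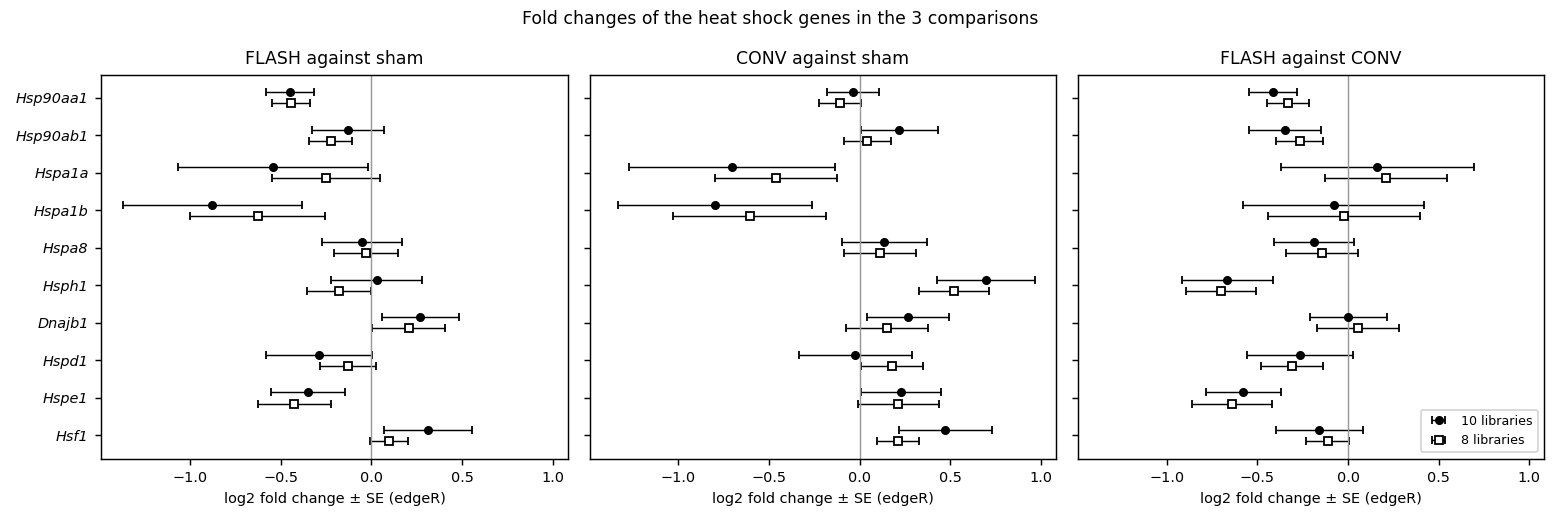
Log2 fold change with its SE from edgeR for each heat shock gene in the comparisons of FLASH with sham, CONV with sham and FLASH with CONV, with all 10 libraries (filled) and with the 8 libraries that are not lymphocyte-rich (open). The bars of Hsp90aa1 stay below 0 in both comparisons of FLASH, those of Hsph1 lie above 0 for CONV against sham and below 0 for FLASH against CONV, and those of Hspa1a and Hspa1b are the widest.

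The genes differed in how much they varied from library to library. Hsp90aa1 and Hspa8 had the narrowest spread over all 10, with log2 CPM ranges of 0.61 and 0.62 over the 10 libraries beside a median range of 1.51 over all genes tested. Dnajb1 and Hsp90ab1 followed with 0.80 each, Hsf1 with 0.91, Hspe1 with 1.13 and Hspd1 with 1.39. Hsph1 with 1.55, Hspa1a with 2.49 and Hspa1b with 2.59 exceeded the median range. Without the lymphocyte-rich libraries the ranges of Hspa1a, Hspa1b and Hspd1 were 1.16, 1.50 and 0.72, beside a median of 0.83 over all genes. Hsf1 with 0.36 and Hsp90ab1 with 0.47 were then narrower than Hsp90aa1 (0.61) and Hspa8 (0.62), and Hsph1 with 1.17 and Hspe1 with 1.13 exceeded the median. Both lymphocyte-rich libraries were outside the other 8 for 5 genes, below them for Hspa1a, Hspa1b and Hspd1 and above them for Dnajb1 and Hsf1. The share of all genes tested that lay outside in this way was not counted, so the 5 are not read as a trait of heat shock genes.

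Genes with the profile most like Hspa1b, by the mean absolute difference of centred log2 CPM over the 10 libraries, were Shc4 (0.19), Kank4 (0.20), Slc6a17 (0.21), Mrgprf (0.22) and Gdf9 (0.23). For Hsph1 they were Ly6e (0.12), Smox (0.13), Fes (0.15), Ctsz (0.15) and Wdr12 (0.15). Ly6e shows the shape of the second group, with 254, 287, 501 and 204 CPM in FLASH libraries, 399, 600.1 and 384 CPM in CONV libraries, and 258, 256 and 246 CPM in sham libraries. Its 3 CONV libraries lay above the sham libraries and its lymphocyte-rich FLASH library was the highest FLASH library, as for Hsph1.

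Other chaperones were read from 8 lists of 84 genes, of which 81 were tested. None of the 81 passed by edgeR in any comparison, with 10 or with 8 libraries. Unadjusted p-values under 0.05 numbered 1 for FLASH against sham, 5 for CONV against sham and 5 for FLASH against CONV with 10 libraries, and 4, 8 and 14 with 8. Over all genes such p-values made up 0.648%, 5.82% and 2.97% with 10 libraries and 2.52%, 13.3% and 13.7% with 8. List medians below are given in that order of the comparisons, first with 10 and then with 8 libraries. Single genes were named from these lists mainly for a small p against sham, which favours groups that do not overlap. Over all genes with 10 libraries, 2.46% lay above and 2.45% below sham without overlap for FLASH. For CONV these shares were 8.58% and 9.11%. The 22 HSP90 and HSP70 cochaperones had median log2 fold changes of -0.05, 0.12 and -0.15 with 10 libraries, and -0.02, 0.10 and -0.18 with 8. Among them Fkbp5, an HSP90 partner that tunes the glucocorticoid receptor and is itself a glucocorticoid target, stood at 53.2, 50.5, 53.3 and 55.4 CPM in FLASH libraries, at 72.9, 73.3 and 119.9 CPM in CONV libraries, and at 28.4, 42.4 and 34.6 CPM in sham libraries. The 3 groups of Fkbp5 did not overlap, with log2 fold changes of 0.60 ± 0.22 for FLASH against sham and 1.34 ± 0.23 for CONV against sham (adjusted p by edgeR 0.998 and 0.607, and with 8 libraries 1.00 and 0.0854).

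Fkbp4, the partner of HSP90 that helps carry steroid receptors to the nucleus, averaged 38.7 ± 0.719 CPM in FLASH libraries against 46.1 ± 4.72 CPM in sham libraries, a log2 fold change of -0.25 ± 0.13. All FLASH libraries of Fkbp4 lay below all sham libraries, as they did for Hsp90aa1. Chordc1, an HSP90-binding protein induced by heat, averaged 57.3 ± 3.59 CPM in CONV libraries against 43.5 ± 9.43 CPM in sham libraries, without overlap (0.40 ± 0.21). The 16 J proteins had medians of 0.01, 0.17 and -0.12 with 10 libraries, and -0.01, 0.07 and -0.14 with 8, with Dnajb6 at 77.7 ± 7.75 CPM in CONV libraries and 66.9 ± 4.39 CPM in sham libraries.

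The 8 subunits of TRiC, the cytosolic chaperonin that folds actin and tubulin, had medians of -0.08 for FLASH against sham (6 of 8 negative), 0.12 for CONV against sham (8 of 8 positive) and -0.17 for FLASH against CONV (8 of 8 negative). Without the lymphocyte-rich libraries the medians were -0.11, -0.01 and -0.10, and 4 of 8 were positive for CONV against sham. Cct5 averaged 83.8 ± 6.79 CPM in FLASH libraries against 99.7 ± 3.86 CPM in sham libraries, without overlap (-0.25 ± 0.15). The 13 other mitochondrial chaperones and proteases had medians of -0.16, -0.01 and -0.09 with 10 libraries, and -0.05, 0.08 and -0.12 with 8, and Clpp, a matrix protease subunit, averaged 16.5 ± 4.10 CPM in FLASH libraries and 20.8 ± 4.10 CPM in sham libraries. The 5 tested heat shock factors and regulators had medians of -0.02, -0.18 and 0.17 with 10 libraries, and 0.10, 0.00 and 0.00 with 8.

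Small heat shock proteins and further HSP70 relatives spread more. Cryab, a small chaperone of filaments, stood at 135, 123, 11.0 and 66.6 CPM in FLASH libraries, at 51.4, 3.92 and 25.6 CPM in CONV libraries, and at 96.0, 122 and 78.8 CPM in sham libraries. All CONV libraries of Cryab lay below all sham libraries, with a log2 fold change of -1.88 ± 0.97 (-1.38 ± 0.39 with 8 libraries), and the lymphocyte-rich libraries were the lowest. Hspa12a, a distant HSP70 relative, stood at 317, 273, 44.7 and 193 CPM in FLASH libraries, at 124, 28.8 and 113 CPM in CONV libraries, and at 292, 328 and 259 CPM in sham libraries. Its CONV libraries were also all below sham, by -1.73 ± 0.70 and, with 8 libraries, by -1.33 ± 0.22 (adjusted p = 0.0891, edgeR). The 6 tested small heat shock proteins had medians of -0.26, -0.68 and 0.75 with 10 libraries, and 0.04, -0.27 and 0.63 with 8. Those of the 8 other HSP70 and HSP110 genes were -0.18, -0.30 and 0.05 with 10 libraries, and -0.07, -0.12 and 0.10 with 8.

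The endoplasmic reticulum has its own HSP70 and HSP90 chaperones, of which 3 genes were listed. Hspa5 (BiP), the HSP70 of that compartment, stood at 279, 296, 265 and 248 CPM in FLASH libraries, at 386, 603 and 384 CPM in CONV libraries, and at 329, 308 and 320.4 CPM in sham libraries. All FLASH libraries lay below and all CONV libraries above the sham libraries. The log2 fold change was -0.23 ± 0.21 for FLASH against sham and 0.52 ± 0.22 for CONV against sham, and with 8 libraries -0.23 ± 0.11 and 0.25 ± 0.12. Hsp90b1, the HSP90 of the same compartment, reached 1399 CPM in CONV replicate 2, a lymphocyte-rich library, against 287 to 425 CPM in the other 9. The 3 genes had medians of -0.21, 0.99 and -0.92 with 10 libraries and of -0.23, 0.25 and -0.47 with 8.

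**Figure D4:**
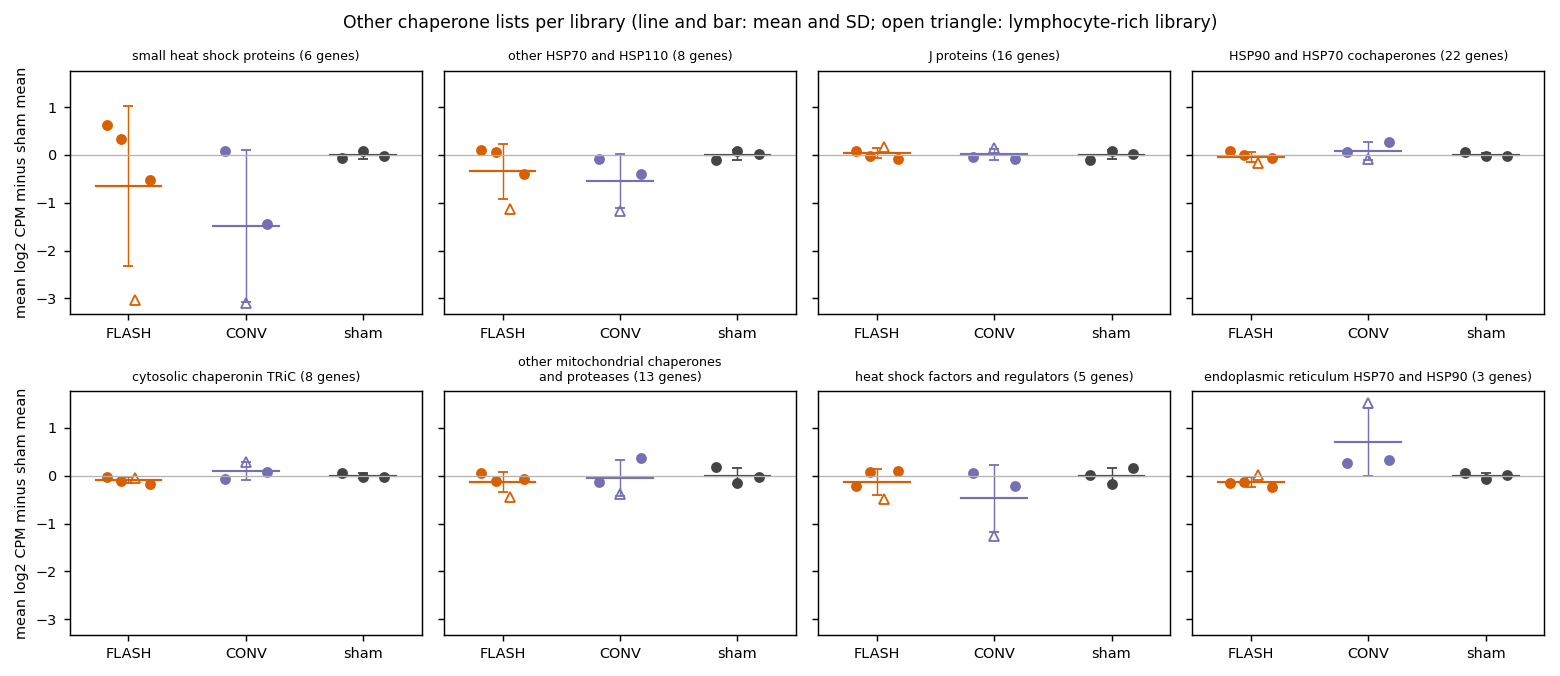
Mean log2 CPM of each of the 8 other chaperone lists minus its sham mean, with 1 point per library, lines and bars for the mean and SD of FLASH (n = 4), CONV (n = 3) and sham (n = 3) libraries, and open triangles for the lymphocyte-rich libraries. The small heat shock proteins are lowest in the lymphocyte-rich libraries, at -3.04 and -3.10, and the J proteins, cochaperones and TRiC stay near 0.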

How the data were processed

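Each sample came with 1 table of raw counts per gene symbol, deposited by the authors without normalization, as whole numbers and differing totals show. The build mm10 and the tool kallisto 0.5.0 are named, per the submitters' processing notes. Closing entries of each table, under names that htseq-count writes, cover all reads not given to a gene, those with several matches included. Together they made up 52.0% to 69.6% of a library and stayed out of library sizes. Aligner, strand setting and annotation were not given in the sources used here. Reads with several matches held 3.44% to 6.36%, which can lower counts of near-identical copies.

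Counts were fitted in R 4.3.3 with edgeR 4.0.16: filterByExpr, TMM (factors 0.875 to 1.17), 1 mean per group over all 10 libraries, robust quasi-likelihood tests, and two-sided contrasts adjusted by Benjamini and Hochberg over all 15266 genes tested (15252 with 8 libraries). The common coefficient of biological variation was 0.543 (10 libraries) and 0.284 (8 libraries). A library was called lymphocyte-rich where the mean of its B cell markers exceeded that of the highest sham library by over 3 log2 units. DESeq2 1.42.0 and limma 3.58.1 were alternatives, beside other scalings, other filters, a block for the replicate number and fits without each library in turn. The code was also run on simulated counts, which gives no measure of how small a change these 10 libraries could reveal. Groups were said not to overlap by CPM, with 8 libraries over the 15077 genes tested in both sets.

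The 10 genes and all gene lists were chosen with earlier results of these data known. Other chaperones were named by a rule: any gene past the threshold, and per list the 2 with the smallest p for CONV and for FLASH against sham at a mean log2 CPM of at least 2. Not all of these are printed. Replicates of a group differed by more than sampling noise. Locations and exon lengths came from GENCODE M21 and promoters from RefSeq.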

Additional observations from a re-analysis of the deposited data

Results flagged for a closer look

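In the group of 4 FLASH libraries, 3 of 10 heat shock genes had 1 library far from the rest by Dixon's criterion (a gap to the next library that is most of the group's range), which chance gives about 1 group in 20. All 3 flags fell on the same library, and Hspa1a and Hspa1b are near-identical copies, so the flags are not independent of each other. The share of all genes flagged in this way was not counted. FLASH replicate 3 was the lowest in Hspa1a, at 0.502 CPM (gap 0.934 of the log2 range), and in Hspa1b, at 0.811 CPM (0.887). It was the highest in Hsf1, at 42.2 CPM (0.897). FLASH replicate 3 is lymphocyte-rich, with 2384 CPM of summed B cell markers and 7690 CPM of summed adipocyte markers, against 3.22 to 4.94 CPM and 33541 to 45287 CPM in the other 3 FLASH libraries. CONV replicate 2, the other lymphocyte-rich library, had 0.905 CPM of Hspa1a, 1.44 CPM of Hspa1b and 44.0 CPM of Hsf1, each also at the same end of its group. The part of the cell mixture in these values was not tested.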

How the results depend on the processing

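Each comparison was recomputed under 31 alternatives, those that leave out a further library beside the lymphocyte-rich pair having been added after the data were seen. The count of heat shock genes past the threshold was 0 for both comparisons with sham under all 31, and for FLASH against CONV under 29. It was 1 for FLASH against CONV with DESeq2 (Hsp90aa1, -0.41) and 1 with DESeq2 without the lymphocyte-rich libraries (Hsph1, -0.71), and the cause was not tested. Leaving out each library from the 10 gave 0 in each comparison. Of 30 fold changes, 16 kept their sign throughout, among them Hsp90aa1 for FLASH against sham (-0.51 to -0.40) and FLASH against CONV (-0.47 to -0.24), Hsph1 for CONV against sham (0.46 to 0.78) and FLASH against CONV (-0.88 to -0.51), and Hspe1 for FLASH against CONV (-0.89 to -0.33). The value of -0.89 came without CONV replicate 1 and the lymphocyte-rich pair (adjusted p = 0.0569, edgeR), where the adjusted p under the other alternatives was 0.151 to 1.00. The signs least kept were those of Hsph1 for FLASH against sham (-0.35 to 0.19) and Hspd1 for CONV against sham (-0.32 to 0.40). Over all genes the calls ranged from 0 to 4 for FLASH against sham, 0 to 1134 for CONV against sham and 0 to 1025 for FLASH against CONV, with 1134 and 1025 when CONV replicate 1 and the lymphocyte-rich pair were left out. With the replicate number as a block 0 heat shock genes passed in each comparison, and Hsp90aa1 stood at -0.43 for FLASH against sham. Deviations of same-numbered libraries from their group means had correlations of -0.756 to 0.261. The lymphocyte-rich libraries carry different numbers, so these values cannot show whether the numbers are pairs. The numbers were not read as pairs in the main fit. Total-count scaling moved the median of all genes for CONV against sham to 0.12, against 0.08.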

Other observations

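Genes of other quick responses were read beside the heat shock genes. The cold-inducible RNA-binding gene Cirbp stood at 41.5, 40.6, 80.5 and 59.4 CPM in FLASH libraries, at 46.6, 56.2 and 33.6 CPM in CONV libraries, and at 51.4, 40.5 and 58.2 CPM in sham libraries. Rbm3, the other cold-inducible gene, stood at 86.7, 87.4, 157 and 91.8 CPM in FLASH libraries, at 90.0, 155 and 87.1 CPM in CONV libraries, and at 75.1, 80.3 and 85.7 CPM in sham libraries. All irradiated libraries of Rbm3 lay above all sham libraries, at the nearest 86.7 against 85.7 CPM, and the lymphocyte-rich libraries were far above the rest. The share of all genes that lay above sham in this way was not counted.

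The mean of 10 immediate early genes, such as Fos, lay between -0.63 and 0.04 log2 units from the sham mean in FLASH libraries, at 0.63, -0.67 and -0.64 in CONV libraries, and between -0.22 and 0.24 in sham libraries. CONV replicate 1 was the highest. The mean of 9 clock output genes lay at -0.29, -0.21, -0.68 and 0.43 in FLASH libraries, at -0.45, -1.20 and 0.42 in CONV libraries, and between -0.13 and 0.11 in sham libraries. The hour of sampling is not stated in the labels, and the part of these genes' differences in the chaperone values was not tested.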
